A study of Homo sapiens with 8 samples.

Results

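TKTL1 and 6 other genes that encode enzymes of the pentose phosphate pathway were followed in DU145 cells, an established human prostate cancer line. The members are TKTL1, TKT, TALDO1, PGLS, PGD, RPIA and RPE, 7 of the 23391 genes in the deposited count table, and all 7 passed the filter on low counts. TKTL1 was chosen by its measured counts, which are higher with Esrrb alone and with the ligand alone and lower when both are present, so its values are given as a description without a test. The other 6 members were taken for their place in the pathway and were tested.

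DU145 cells had been stably transfected with an Esrrb expression vector (DU145-Esrrb) or with the empty pcDNA3.1-zeo (+) vector (DU145-pc3.1), selected with Zeocine, and used as pools of transfected cells. Esrrb, estrogen-related receptor beta, is an orphan nuclear receptor that binds DNA as a transcription factor, and DY131 is a synthetic ligand of Esrrb and of its relative Esrrg. Cells with either vector were sequenced untreated and after 3 μM DY131, all in medium with charcoal-stripped serum, which gave 4 groups of 2 biological replicates and 8 libraries of poly(A) RNA. The length of the DY131 treatment, and whether the untreated cells received a vehicle, are not given in the sources used here. An Esrrb difference below is a difference between the pools, and other differences between the pools cannot be told apart from it.

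The pentose phosphate pathway branches off glycolysis at glucose 6-phosphate. Its oxidative arm makes NADPH, which cells use for lipid synthesis and to keep glutathione reduced, and ends in ribulose 5-phosphate. Its non-oxidative arm converts pentose phosphates into one another and, through transketolase and transaldolase, back into the sugar phosphates of glycolysis, so that ribose for nucleotides can be made from either side. TKTL1 encodes a transketolase-like protein that resembles TKT, and has often been studied in tumours.

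The transcription start of TKTL1 lies on the X chromosome. Among the members it had the largest differences between groups, so the sequences before its 2 annotated starts are shown, together with that of RPE, which was the only member with a match to either motif searched. The sequences are from RefSeq (GRCh38.p14), cover the 250 bases before each start, and run 5′ to 3′ on the strand of the gene. The motifs were TCAAGGTCA, the response element of estrogen-related receptors, and its shorter core AAGGTCA, which lies within it, both on either strand. Capitals mark the match.
TKTL1, first start, chrX:154295545-154295794, plus strand: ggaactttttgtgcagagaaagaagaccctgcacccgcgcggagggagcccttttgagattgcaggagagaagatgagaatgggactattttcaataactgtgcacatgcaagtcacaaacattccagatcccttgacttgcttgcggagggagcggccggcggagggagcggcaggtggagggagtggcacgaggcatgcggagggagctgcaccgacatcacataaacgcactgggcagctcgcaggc
TKTL1, second start, chrX:154304920-154305169, plus strand: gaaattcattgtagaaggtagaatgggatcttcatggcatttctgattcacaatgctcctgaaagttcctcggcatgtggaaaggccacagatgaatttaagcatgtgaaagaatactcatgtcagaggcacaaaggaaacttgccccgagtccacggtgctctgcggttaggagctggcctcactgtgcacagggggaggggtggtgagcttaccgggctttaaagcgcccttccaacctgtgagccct
RPE, chr2:210002388-210002637, plus strand: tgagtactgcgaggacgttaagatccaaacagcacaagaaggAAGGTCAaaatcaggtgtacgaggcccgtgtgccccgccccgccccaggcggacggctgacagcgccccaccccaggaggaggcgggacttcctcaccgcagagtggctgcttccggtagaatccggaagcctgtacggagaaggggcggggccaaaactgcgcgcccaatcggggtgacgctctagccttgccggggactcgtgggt
The full windows searched ran from 250 bases before to 50 bases after the start. TCAAGGTCA was in 0.353% of the 35116 promoters in the reference and AAGGTCA in 3.92%. Neither string was found in the windows of TKTL1, TKT, TALDO1, PGLS, PGD or RPIA. In RPE, AAGGTCA stood on the plus strand at position -208 from the start. A string match is not evidence of binding.

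The genes lie on 6 chromosomes. In GRCh38 with the GENCODE 29 annotation, TKTL1 spans chrX:154295671-154330350 on the plus strand. Its counts are listed under NM_001145933, and the GENCODE transcript taken for it, ENST00000369915.7, has 13 exons over 2642 bases. TKT lies at chr3:53224707-53256052 on the minus strand, TALDO1 at chr11:747329-765024, PGLS at chr19:17511629-17521288, PGD at chr1:10398592-10420144, RPIA at chr2:88691644-88750935 and RPE at chr2:210002565-210022259, the last 5 on the plus strand. The authors counted on an older build (hg18), so these positions are not those of their alignment. Some 7.03% of the 50-base windows of PGD also occur in its pseudogene PGDP1 and 13.6% of those of RPE in its retrocopy RPEL1, and the levels of PGD and RPE carry that uncertainty. TKTL1, TKT, TALDO1, PGLS and RPIA shared no window with another transcript. TKTL1 overlaps TEX28 on the other strand, which had 0 counts in all 8 libraries, and PGLS overlaps AC010618.3 on the other strand. How strand was used in the counting is not given in the sources used here, so reads of PGLS and of its antisense partner cannot be told apart.

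Counts summed over genes ranged from 7.86 M to 11.6 M per library, the 2 lowest in DY131-treated DU145-Esrrb cells. ESRRB had 3 and 0 counts in the DU145-pc3.1 libraries, 104 and 99 in DU145-Esrrb, 0 and 1 in DY131-treated DU145-pc3.1 and 105 and 143 in DY131-treated DU145-Esrrb, so the transgene went with the labels. Both libraries of the last group carry the same heading in the table and no replicate number, and are called a and b. The DY131-treated DU145-pc3.1 libraries differed from each other most, with a chi-square per degree of freedom of 7.10, against 1.29 to 2.60 for the other pairs. The 5 epithelial markers (KRT8, KRT18, KRT19, EPCAM and CDH1) summed to between 2500 and 3170 cpm per library, where cpm is the count divided by the TMM-scaled library size in units of 1e6. Of 3 prostate luminal markers, KLK3 and KLK2 were at 0 and TMPRSS2 at 0 or 1 counts in every library. The 4 fibroblast markers summed to at most 5.79 cpm and the 3 endothelial ones to at most 1.12 cpm. The 3 leukocyte markers summed to 59.3 to 77.6 cpm in the other groups and to 90.7 and 93.6 cpm in DY131-treated DU145-Esrrb cells, almost all of it CD68, with CD3E at 0 and PTPRC at 0 or 1 counts, and the part of this in the results was not tested.

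TKTL1 was a rare transcript in all 4 groups and its level differed several-fold between them. It stood at 3.05 and 2.20 cpm in the DU145-pc3.1 libraries. In DU145-Esrrb it was at 9.51 and 10.1 cpm, and in DY131-treated DU145-pc3.1 at 7.10 and 6.65 cpm. In DY131-treated DU145-Esrrb, where both were present, it was at 3.52 and 4.30 cpm. No pair of groups overlapped, and the order of the means was 2.63 ± 0.603, 3.91 ± 0.548, 6.87 ± 0.324 and 9.81 ± 0.431 cpm (SD, n = 2) for DU145-pc3.1, DY131-treated DU145-Esrrb, DY131-treated DU145-pc3.1 and DU145-Esrrb.

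The first 2 groups in that order were the closest. These levels rest on 25 to 112 reads per library: 32 and 25 reads in DU145-pc3.1 and 27 and 38 in DY131-treated DU145-Esrrb. The 95% Wilson interval of the first DU145-pc3.1 library ran from 2.20 to 4.37 cpm by its total count and that of library b of DY131-treated DU145-Esrrb from 3.06 to 5.76, so the intervals of these single libraries overlapped. The intervals cover counting error only, since the reads carry no molecular identifiers and may repeat a molecule. In the DU145-Esrrb libraries they ran from 8.06 to 12.4.

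**Figure D1:**
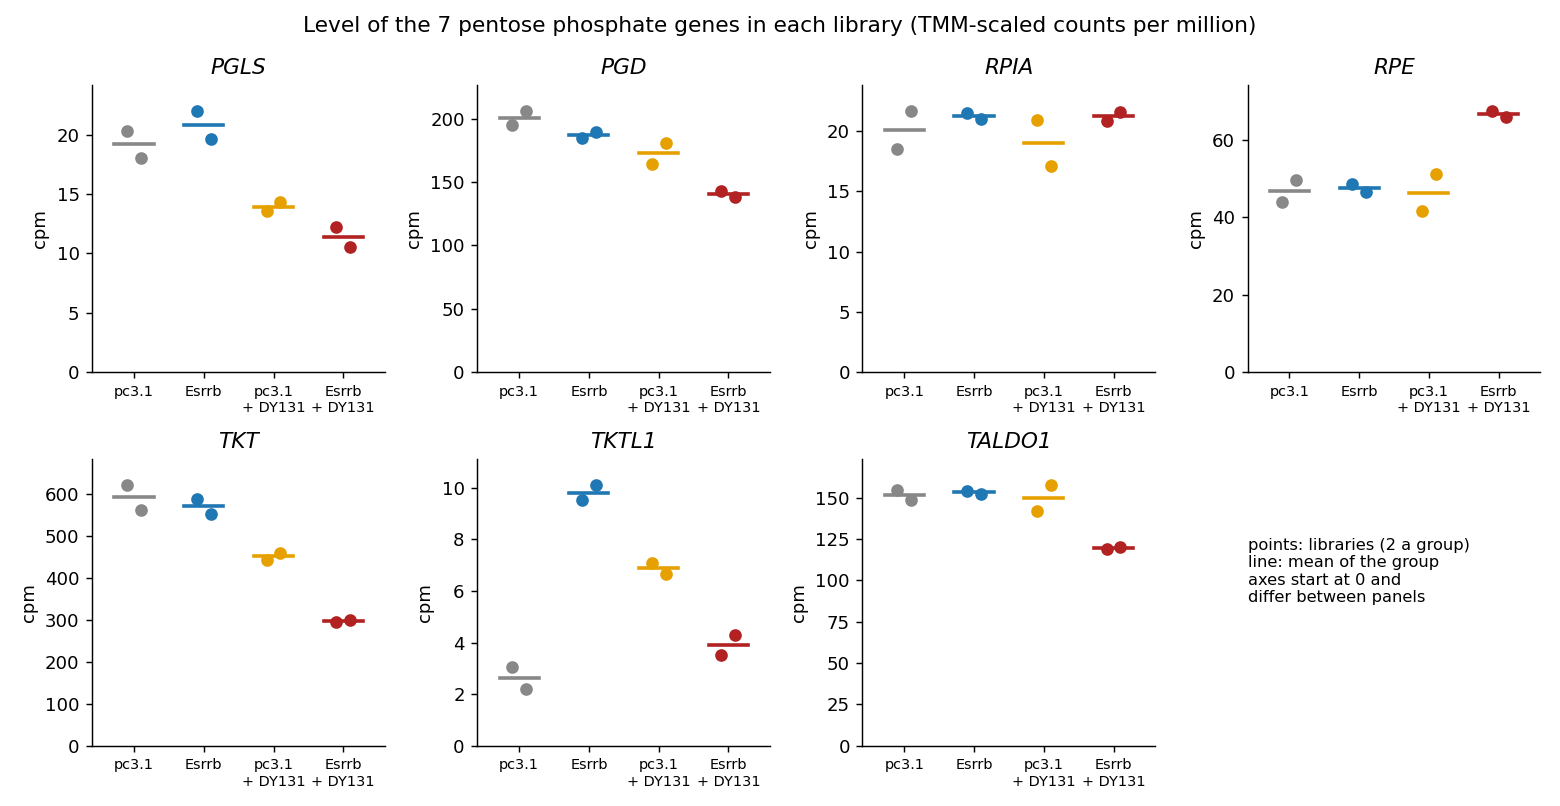
Level of each of the 7 genes in cpm (vertical axes, starting at 0 and different in each panel) for the 4 groups, with 1 point per library and a line at the mean of the 2 libraries of a group. TKTL1 was lowest in untreated DU145-pc3.1 and highest in untreated DU145-Esrrb, while TKT stood at 296 and 299 cpm in DY131-treated DU145-Esrrb and at 444 cpm or more in all other libraries, and RPE at 65.9 and 67.4 cpm there and at 51.1 cpm or less elsewhere.

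The fitted log2 difference of TKTL1 was 1.90 (SE 0.20) for Esrrb in untreated cells, a 3.74-fold higher level, and 1.39 (SE 0.22) for DY131 in DU145-pc3.1, a 2.63-fold higher level. With DY131 in DU145-Esrrb cells it was -1.32 (SE 0.20), or 2.49-fold lower, and for Esrrb among DY131-treated cells -0.81 (SE 0.21), or 1.75-fold lower. DY131-treated DU145-Esrrb cells stood 0.59 (SE 0.25) above untreated DU145-pc3.1 on the log2 scale. The interaction, that is the DY131 difference in DU145-Esrrb less the DY131 difference in DU145-pc3.1, was -2.71 (SE 0.30). These comparisons share libraries and TKTL1 was chosen for this pattern, so no p is given.

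The size of the first pair of differences depended on the untreated DU145-pc3.1 libraries. Without the first of them the Esrrb difference of TKTL1 was 2.15 and the DY131 difference in DU145-pc3.1 was 1.64 on the log2 scale, and without the second they were 1.68 and 1.17. ESRRB was at 8.83 and 9.10 cpm in DU145-Esrrb and at 13.7 and 16.2 cpm in DY131-treated DU145-Esrrb, where TKTL1 was lower. These groups also differ in DY131, and TKTL1 was chosen for its lower level with both present. A link between the levels of ESRRB and TKTL1 was therefore not tested.

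Both transketolase transcripts were compared per length. TKT, the enzyme that moves a carbon pair between sugar phosphates, was at 197 ± 14.0 cpm per kb in DU145-pc3.1, 190 ± 8.55 in DU145-Esrrb, 150 ± 3.80 in DY131-treated DU145-pc3.1 and 98.8 ± 0.684 in DY131-treated DU145-Esrrb (SD, n = 2). TKTL1 was at 0.994 ± 0.228, 3.71 ± 0.163, 2.60 ± 0.122 and 1.48 ± 0.208 cpm per kb in the same order. TKTL1 therefore made up 0.500% ± 0.0794 of the summed TKT and TKTL1 level per length in DU145-pc3.1, 1.93% ± 0.168 in DU145-Esrrb, 1.71% ± 0.121 in DY131-treated DU145-pc3.1 and 1.47% ± 0.194 in DY131-treated DU145-Esrrb. Every library outside untreated DU145-pc3.1 had a share of 1.34% or more, against 0.556% and 0.444% in the untreated DU145-pc3.1 libraries. DY131-treated DU145-Esrrb differed here from untreated DU145-pc3.1 by its lower TKT as well as by its TKTL1. The sum of both transcripts was 198 ± 14.2, 193 ± 8.39, 153 ± 3.68 and 100.3 ± 0.891 cpm per kb in the 4 groups, and followed TKT. TKTL2, the remaining gene of the family, had 0 counts in all libraries.

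**Figure D2:**
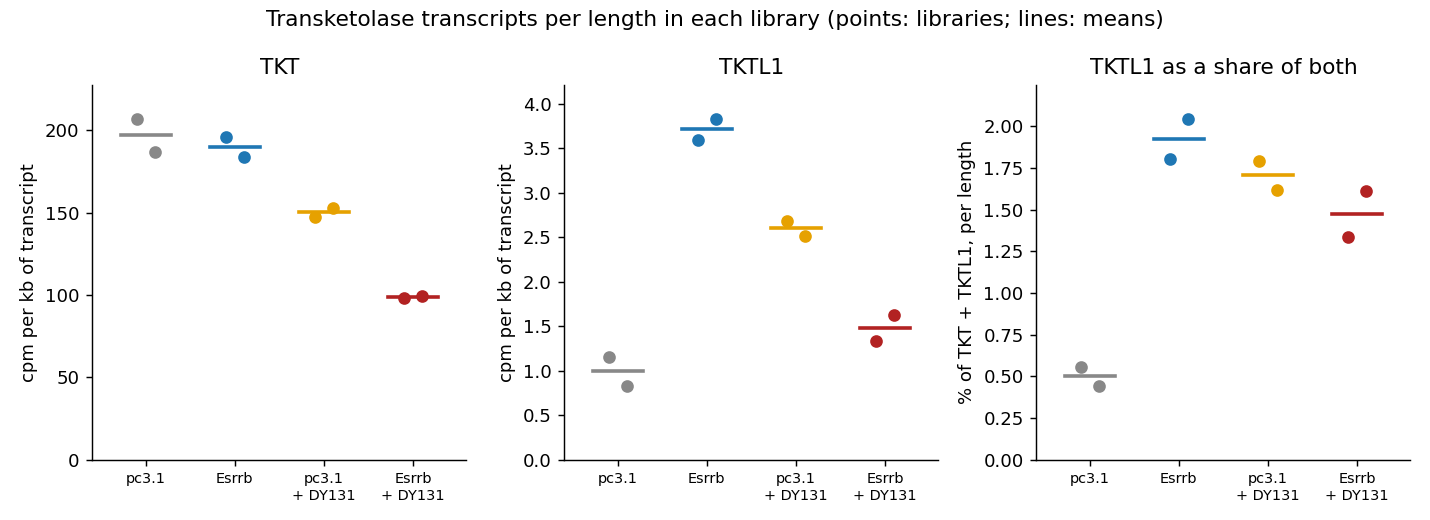
TKT (left) and TKTL1 (middle) in cpm per kb of transcript, and TKTL1 as a percentage of the sum of both (right), for the 4 groups, with 1 point per library and a line at the mean. The axes start at 0, and the share of TKTL1 was lowest in untreated DU145-pc3.1, at 0.500% on average, against 1.47% to 1.93% in the other groups.

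Esrrb alone changed none of the 6 other members. In DU145-Esrrb against DU145-pc3.1, 0 of 6 passed an adjusted p of 0.05 by the quasi-likelihood test of edgeR, adjusted over 13856 genes by the method of Benjamini and Hochberg, where 4.18% of all genes passed. DESeq2 and edgeR's exact test also called 0 of 6, and 0 of 6 had an unadjusted p under 0.05. The fold changes ran from -0.10 for PGD to 0.12 for PGLS on the log2 scale, with a median of 0.0192 against 0.00119 over all genes. In bulk libraries a lower level per cell and fewer cells with the transcript cannot be told apart, here and in the comparisons that follow.

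DY131 in DU145-pc3.1 cells lowered 3 of the 6 members, TKT, PGLS and PGD, and 0 of 6 rose, where 37.4% of all genes passed the test, 18.5% with a lower level and 18.9% with a higher one. TKT was at 622 and 563 cpm in the untreated libraries and at 444 and 460 cpm with DY131. It fell by 0.39 on the log2 scale (SE 0.06, adjusted p = 0.000149, edgeR). PGLS, the lactonase of the oxidative arm, was at 20.3 and 18.1 cpm and then at 13.6 and 14.3 cpm, and fell by 0.46 (SE 0.13, adjusted p = 0.00904, edgeR). PGD, the dehydrogenase that makes ribulose 5-phosphate and NADPH, was at 195 and 206 cpm and then at 164 and 180 cpm, and fell by 0.22 (SE 0.06, adjusted p = 0.0106, edgeR). For each of these genes both treated libraries lay below both untreated ones. With 2 libraries a group such separation says little alone, here and in the comparisons below. PGD was also separate for Esrrb in untreated cells, where it did not pass (adjusted p = 0.456, edgeR). The share of all genes that separate in this way was not counted. TALDO1, RPIA and RPE differed by -0.02, -0.08 and -0.02 on the log2 scale and did not pass, and their treated and untreated libraries overlapped.

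The calls of PGLS and PGD in DU145-pc3.1 cells depended on single libraries. PGLS did not pass without the first untreated library (adjusted p = 0.099, edgeR) or with DESeq2 (adjusted p = 0.0702). PGD did not pass without the second untreated library (adjusted p = 0.105), without the first treated library (adjusted p = 0.0576) or in a fit of these 4 libraries alone (adjusted p = 0.0509, all edgeR). TKT passed in every fit run, with adjusted p of at most 0.00626 when a library was left out.

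DY131 in DU145-Esrrb cells changed 5 of the 6 members: TKT, PGLS, PGD and TALDO1 fell and RPE rose. In this comparison 58.7% of all genes passed the test, 29.5% with a lower level and 29.2% with a higher one. The median of the 6 members was -0.388 on the log2 scale against -0.00449 over all genes. At 2-fold or more, 0 of 6 changed, where 12% of all genes did.

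In the oxidative arm, PGLS was at 22.0 and 19.6 cpm in untreated DU145-Esrrb and at 12.3 and 10.5 cpm with DY131. It fell by 0.88 on the log2 scale (SE 0.13, adjusted p = 4.54e-05, edgeR), to a level 1.83-fold lower. PGD was at 185 and 190 cpm and then at 143 and 138 cpm, and fell by 0.42 (SE 0.06, adjusted p = 4.14e-05, edgeR). Both treated libraries lay below both untreated ones for each gene.

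Of the isomerase and the epimerase of the non-oxidative arm, only the epimerase passed, and the difference between them was not tested. RPIA, which turns ribulose 5-phosphate into ribose 5-phosphate, was at 21.5 and 21.0 cpm without and at 20.9 and 21.6 cpm with DY131, a log2 difference of 0.00 (SE 0.12, adjusted p = 0.996, edgeR). RPE, which turns ribulose 5-phosphate into xylulose 5-phosphate, was at 48.5 and 46.5 cpm and then at 67.4 and 65.9 cpm. RPE rose by 0.49 on the log2 scale (SE 0.09, adjusted p = 0.000366, edgeR), a level 1.40-fold higher, and was the only member tested that rose in any comparison.

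Of the enzymes that link the pentose phosphates to glycolysis, TKT was at 589 and 552 cpm without and at 296 and 299 cpm with DY131. It fell by 0.94 on the log2 scale (SE 0.06, adjusted p = 1.01e-08, edgeR), to a level 1.92-fold lower, the largest change among the 6. TALDO1, transaldolase, was at 154 and 152 cpm and then at 119 and 120 cpm, and fell by 0.36 (SE 0.06, adjusted p = 0.000185, edgeR). The treated libraries of both genes lay below every other library of the study.

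**Figure D3:**
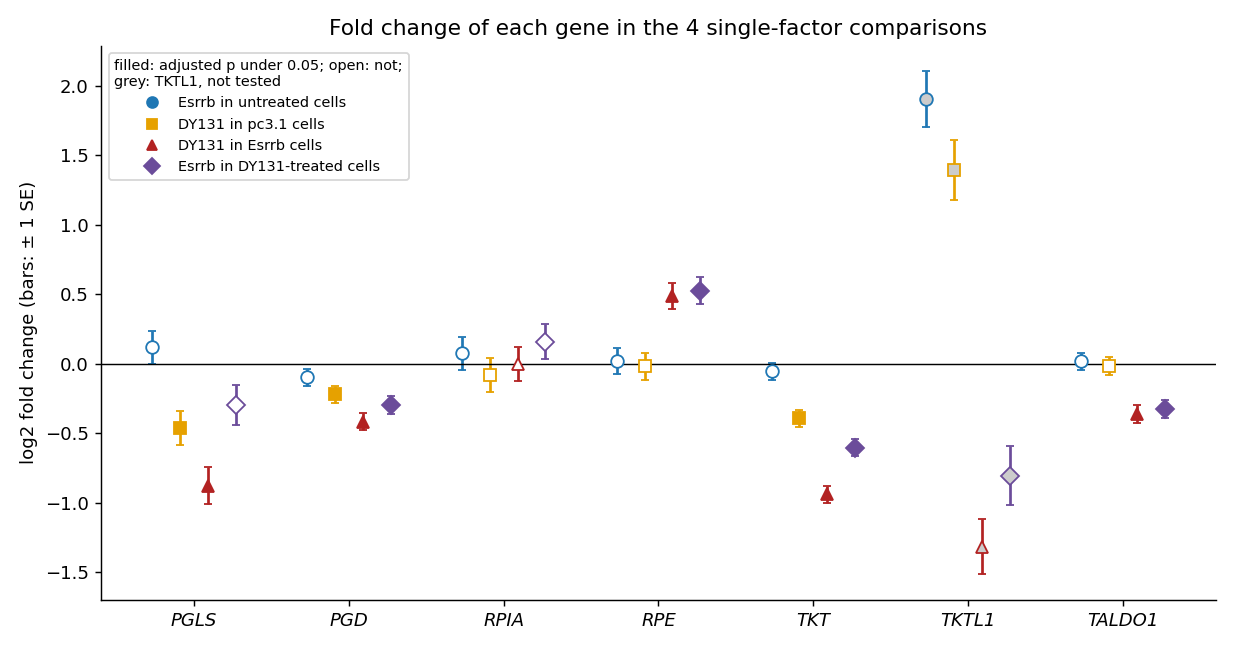
log2 fold change of each gene (vertical axis, bars ± 1 SE) in the comparisons of Esrrb without and with DY131 and of DY131 in each cell pool, with filled symbols for adjusted p under 0.05, open ones for the rest and grey ones for TKTL1, which was not tested. The members tested lay between -0.94 and 0.53, and TKTL1 between -1.32 and 1.90.

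Fold changes in the comparisons with DY131-treated DU145-Esrrb cells went with exon structure over all genes. The share of 50-base windows of a transcript that span an exon junction had a Spearman rho of -0.376 with the log2 fold change of DY131 in DU145-Esrrb over 13670 genes, with a median fold change of 0.27 in the 10% of genes with the lowest share and -0.55 in the 10% with the highest. For Esrrb among DY131-treated cells rho was -0.476. For DY131 in DU145-pc3.1 and for Esrrb in untreated cells rho was 0.0093 and -0.0377. Genes are not independent replicates and share their libraries, so these are descriptions. The shares of the members were 11.8% for RPE, 20.0% for PGLS, 21.5% for TKT, 21.8% for RPIA, 22.7% for TKTL1, 26.4% for TALDO1 and 31.9% for PGD, with a median of 14.4% over all genes.

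With this trend removed in each library, 3 of the 6 members changed under DY131 in DU145-Esrrb cells, where 53.5% of all genes then passed. TKT fell by 0.81 on the log2 scale (adjusted p = 6.63e-08, edgeR), PGLS fell by 0.78 (adjusted p = 0.000172, edgeR) and RPE rose by 0.42 (adjusted p = 0.00131, edgeR). TALDO1 was then at -0.12 (adjusted p = 0.146, edgeR), PGD at -0.02 (adjusted p = 0.842, edgeR) and RPIA at 0.13 (adjusted p = 0.381, edgeR). The TKTL1 difference was -1.17 in place of -1.32. The calls of TALDO1 and PGD thus depended on whether the trend was kept, and its cause was not tested.

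**Figure D4:**
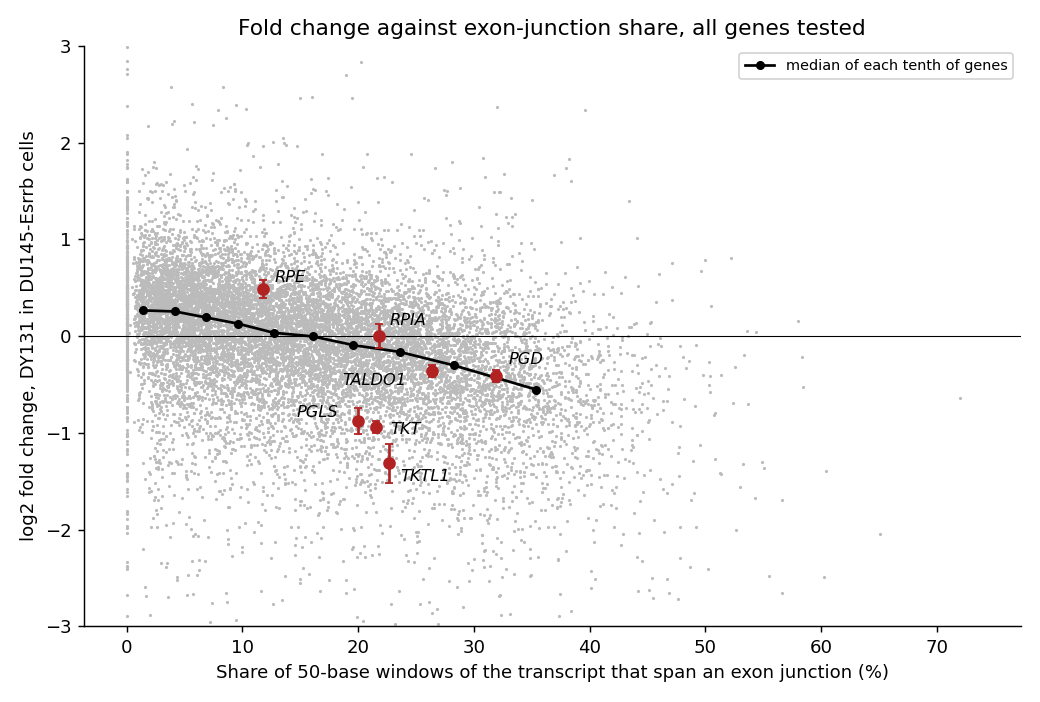
log2 fold change of DY131 in DU145-Esrrb cells (vertical axis, drawn from -3 to 3) against the percentage of 50-base windows of each transcript that span an exon junction (horizontal axis), with 1 grey point per gene, a black line through medians of 10% of the genes each, and the 7 members in red with ± 1 SE. PGD at -0.42 and TALDO1 at -0.36 lay near the black line, TKT, PGLS and TKTL1 below it and RPE above it.

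Among DY131-treated cells, Esrrb changed 4 of the 6 members, with 3 lower and RPE higher, where 50.4% of all genes passed, 25.3% with a lower level and 25.1% with a higher one. TKT fell by 0.60 on the log2 scale (adjusted p = 1.72e-06), TALDO1 fell by 0.33 (adjusted p = 0.000613) and PGD fell by 0.30 (adjusted p = 0.00118), while RPE rose by 0.53 (adjusted p = 0.000294, all edgeR). With DY131, RPE was at 41.6 and 51.1 cpm in DU145-pc3.1, both below the 65.9 cpm of the lower DY131-treated DU145-Esrrb library. PGLS differed by -0.29 (adjusted p = 0.0997) and RPIA by 0.16 (adjusted p = 0.317), and neither passed. With the exon-junction trend removed, 2 of the 6 passed beside 38.4% of all genes. TKT at -0.47 (adjusted p = 3.07e-05) and RPE at 0.45 (adjusted p = 0.00142) passed, TALDO1 was at -0.07 (adjusted p = 0.423) and PGD at 0.11 (adjusted p = 0.191, all edgeR). RPIA was then at 0.29 (adjusted p = 0.0748) and PGLS at -0.20 (adjusted p = 0.294, both edgeR).

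The DY131-treated DU145-pc3.1 libraries, which stood furthest apart, did not decide these calls. Without the first of them the Esrrb difference of RPE was 0.37 and that of TKT -0.64, and without the second they were 0.68 and -0.58. The adjusted p of RPE was at most 0.00673 and that of TKT at most 0.000247 over the 8 fits that each left out 1 library.

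DY131-treated DU145-Esrrb and untreated DU145-pc3.1 cells, which differed in both factors, differed in 5 of the 6 members, 4 lower and RPE higher, where 59.3% of all genes passed, 30.1% with a lower level and 29.1% with a higher one. At 2-fold or more, 0 of 6 differed, where 12.8% of all genes did. TKT was 1.99-fold lower (adjusted p = 4.98e-09) and PGLS 1.69-fold lower (adjusted p = 0.000195, both edgeR). PGD fell by 0.51 and TALDO1 fell by 0.34 on the log2 scale, and RPE rose by 0.51. With the exon-junction trend removed, TKT, PGLS and RPE passed, 3 of 6 beside 53.5% of all genes, and TALDO1 at -0.09 (adjusted p = 0.242) and PGD at -0.11 (adjusted p = 0.184, both edgeR) did not.

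The DY131 response itself differed between the pools for 3 of the 6 members, where 33.7% of all genes passed the interaction test, 17.6% with a negative value and 16.1% with a positive one. TKT fell by 0.55 more on the log2 scale in DU145-Esrrb than in DU145-pc3.1 (SE 0.09, adjusted p = 0.000253, edgeR). The interaction of TALDO1 was -0.34 (SE 0.09, adjusted p = 0.00799) and that of RPE 0.50 (SE 0.13, adjusted p = 0.00905, both edgeR). Neither gene had changed under DY131 in DU145-pc3.1. PGLS at -0.41 (adjusted p = 0.0979), PGD at -0.20 (adjusted p = 0.0951) and RPIA at 0.08 (adjusted p = 0.753, all edgeR) did not pass, so a different response of these genes was not shown.

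The exon-junction trend also ran through the interaction, with a rho of -0.459. Once it was removed, 2 of the 6 members passed, beside 22.2% of all genes. The interaction of TKT was then -0.42 (adjusted p = 0.00307) and that of RPE 0.43 (adjusted p = 0.03), while that of TALDO1 was -0.09 (adjusted p = 0.504) and that of PGD 0.20 (adjusted p = 0.127, all edgeR). Without the second untreated DU145-pc3.1 library the adjusted p of the RPE interaction was 0.0586.

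The 7 members together held 1058 and 1009 cpm in DU145-pc3.1, 1030 and 992 cpm in DU145-Esrrb, 834 and 887 cpm in DY131-treated DU145-pc3.1 and 662 and 660.0 cpm in DY131-treated DU145-Esrrb. The last group was the lowest and no library of it overlapped another group. TKT made up 55.7% to 58.8% of this sum in the untreated libraries, 51.8% and 53.2% in DY131-treated DU145-pc3.1, and 44.8% and 45.3% in DY131-treated DU145-Esrrb. RPE made up 4.16% to 5.76% in the first 3 groups and 9.98% and 10.2% in the last.

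The order of the genes by level per length was alike in the groups apart from 1 exchange. In DU145-pc3.1 TKT at 197 cpm per kb was followed by TALDO1 at 113 ± 2.99, PGD at 106 ± 4.12, RPE at 22.0 ± 1.85, PGLS at 18.7 ± 1.57, RPIA at 10.9 ± 1.20 and TKTL1 at 0.994 ± 0.228 (SD, n = 2). In DY131-treated DU145-Esrrb TKT at 98.8 stood closer to TALDO1 at 88.8 ± 0.790 and PGD at 74.6 ± 1.56, then came RPE at 31.3 ± 0.498, RPIA at 11.5 ± 0.280 and PGLS at 11.1 ± 1.20. RPIA and PGLS thus changed places, but their libraries overlapped in that group, at 11.3 and 11.7 cpm per kb for RPIA and 10.2 and 11.9 for PGLS, so their order there was not resolved. In DU145-Esrrb and in DY131-treated DU145-pc3.1 the order was that of DU145-pc3.1.

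Over the 8 libraries TALDO1, PGLS and PGD went with TKT, RPE went the opposite way, and RPIA followed neither. Pearson's r of log2 cpm with TKT was 0.926 for TALDO1, 0.937 for PGLS, 0.956 for PGD, -0.193 for RPIA and -0.839 for RPE. With TKTL1 it was between -0.308 for RPE and 0.322 for TALDO1, and TKT itself had an r of 0.163 with TKTL1. The points are 8 libraries in 4 groups and no p is given. The exon-junction trend was left in these levels. With it removed TALDO1 and PGD did not pass under DY131 in DU145-Esrrb, and r was not computed without the trend.

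The genes outside the members whose levels were most like that of TKTL1 were SLCO4A1 (r = 0.965), EXOC5 (r = 0.962), SH3RF3 (r = 0.954), ST6GAL1 (r = 0.939) and ANTXR1 (r = 0.923), by Pearson's r of log2 cpm over the 8 libraries. In all, 8 of 13849 genes had an r above 0.9. SLCO4A1, which encodes an organic anion transporter, was at 55.4 ± 2.05 cpm in DU145-pc3.1, 75.8 ± 1.70 in DU145-Esrrb, 71.6 ± 5.43 in DY131-treated DU145-pc3.1 and 61.7 ± 0.995 in DY131-treated DU145-Esrrb. SH3RF3, a ring finger protein with SH3 domains, came nearest to TKTL1 in the size of its differences, with fitted log2 values of 1.44 for Esrrb alone, 1.23 for DY131 alone and -0.93 for DY131 in DU145-Esrrb, at a level of 1.15 cpm in DU145-pc3.1. EXOC5, an exocyst subunit, and ST6GAL1, a sialyltransferase, had differences of 0.16 or less in size on the same scale.

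Genes around the pathway were counted in 4 lists taken from biochemistry. Esrrb alone changed 0 of 9 genes that handle ribose, its phosphates or related compounds such as gluconate (the ribose genes). It changed 1 of 11 at the hexose phosphate steps of glycolysis and 1 of 10 other NADPH-producing enzymes. Of 3 genes of thiamine uptake and activation it changed 0. These counts stand beside 4.18% of all genes. Of the lists without a call, edgeR gave 2 of 9 ribose genes and 0 of 3 thiamine genes an unadjusted p under 0.05, and DESeq2 and edgeR's exact test called 0 in both. Thiamine pyrophosphate is the cofactor of transketolase. The NADPH enzyme was ALDH1L2, a mitochondrial folate dehydrogenase, which fell by 0.84 on the log2 scale from 36.7 ± 1.08 to 20.6 ± 0.416 cpm (adjusted p = 9.82e-05, edgeR).

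The other NADPH-producing enzymes were mostly lower with DY131. In DU145-pc3.1, 7 of 10 fell and 1 rose, with a list median of -0.348 on the log2 scale, and in DU145-Esrrb, 9 of 10 fell and 0 rose, with a median of -0.667, beside 18.5% and 29.5% of all genes with a lower level. With the exon-junction trend removed, 8 of 10 fell in DU145-Esrrb, beside 25.8% of all genes. IDH1, the cytosolic isocitrate dehydrogenase, fell by 0.88 in DU145-pc3.1 (adjusted p = 7.52e-06) and by 0.70 in DU145-Esrrb (adjusted p = 2.1e-05, both edgeR). ALDH1L2 fell by 1.14 and 0.57 in these comparisons (adjusted p = 7.99e-07 and 0.000497, edgeR).

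MTHFD1, a cytosolic enzyme of folate metabolism, has an exon-junction share of 42.6%, among the highest 10% of genes. It rose by 0.32 in DU145-pc3.1, from 199.5 ± 10.5 to 249 ± 5.28 cpm (adjusted p = 0.000436), and fell by 0.74 in DU145-Esrrb, from 213 ± 2.30 to 127 ± 0.478 cpm (adjusted p = 6.64e-08, both edgeR). The interaction was -1.06 (adjusted p = 2.19e-07, edgeR). With the exon-junction trend removed MTHFD1 was at -0.03 in DU145-Esrrb (adjusted p = 0.661), and its interaction was -0.38 (adjusted p = 0.00394, both edgeR). ME3, a mitochondrial malic enzyme, was at 22.9 ± 0.0101 cpm in DY131-treated DU145-pc3.1 and 10.3 ± 0.00916 cpm in DY131-treated DU145-Esrrb, and its interaction was -0.92 (adjusted p = 0.000546), or -0.60 with the trend removed (adjusted p = 0.0157, both edgeR).

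At the hexose phosphate steps, DY131 lowered 5 and raised 2 of 11 genes in DU145-pc3.1, and lowered 5 and raised 3 in DU145-Esrrb, where 37.4% and 58.7% of all genes passed. The phosphofructokinase genes PFKL, PFKM and PFKP, which commit hexose phosphate to glycolysis, fell in DU145-Esrrb, and have exon-junction shares of 35.8%, 33.8% and 41.3%. PFKL went from 176 ± 10.1 to 86.4 ± 2.28 cpm, a fall of 1.03 on the log2 scale (adjusted p = 5.54e-09), PFKM fell by 0.78 (adjusted p = 4.3e-07) and PFKP fell by 0.60 (adjusted p = 1.47e-06, all edgeR). In DU145-pc3.1 PFKL fell by 0.31 (adjusted p = 0.00113) and PFKM fell by 0.26 (adjusted p = 0.00896), while PFKP differed by 0.10 (adjusted p = 0.219, all edgeR). PFKM did not pass there with DESeq2 (adjusted p = 0.0646), nor without the first untreated library (adjusted p = 0.0508) or the second (adjusted p = 0.0513, both edgeR). The interactions of the 3 genes were -0.72, -0.52 and -0.70, and each passed (adjusted p of at most 0.00123, edgeR).

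The exon-junction trend bore on the values in DU145-Esrrb and on the interactions. With it removed, PFKL fell by 0.51 in DU145-Esrrb (adjusted p = 7.25e-06) and PFKM fell by 0.32 (adjusted p = 0.00247), while PFKP was at 0.07 (adjusted p = 0.342, all edgeR). The 3 interactions then did not pass, at -0.22 for PFKL (adjusted p = 0.0857), -0.07 for PFKM (adjusted p = 0.687) and -0.05 for PFKP (adjusted p = 0.704, all edgeR). In DU145-pc3.1 PFKL, PFKM and PFKP were at -0.30, -0.25 and 0.12 with the trend removed, and the calls there were unchanged.

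FBP1, fructose bisphosphatase of the reverse step, fell by 0.71 with DY131 in DU145-pc3.1 (adjusted p = 0.01) and was at -0.02 in DU145-Esrrb (adjusted p = 0.91), with an interaction of 0.69 (adjusted p = 0.0504, all edgeR). In DU145-pc3.1 it did not pass without the first untreated library (adjusted p = 0.0502) or the first treated one (adjusted p = 0.0988), and the interaction passed with the trend removed (0.80, adjusted p = 0.0369, all edgeR). Among DY131-treated cells Esrrb changed 9 of 11 genes of this list, 2 higher and 7 lower, where 50.4% of all genes passed, and with the exon-junction trend removed 2 of 11, where 38.4% did. FBP1 was higher there by 1.30 on the log2 scale (adjusted p = 5.24e-05), or by 1.41 with the trend removed (adjusted p = 3.6e-05, both edgeR). With Esrrb in untreated cells FBP1 was at 0.61 and did not pass (adjusted p = 0.0542, edgeR), but passed with edgeR's exact test (adjusted p = 0.0116).

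Of the 9 tested ribose genes, a list that includes the gluconate kinase IDNK, DY131 raised 2 and lowered 2 in DU145-pc3.1. It raised 2 and lowered 3 in DU145-Esrrb. In these comparisons 37.4% and 58.7% of all genes passed, and the list medians were -0.0995 and -0.0871. PRPS1, which makes phosphoribosyl pyrophosphate from ribose 5-phosphate for nucleotide synthesis, rose by 0.34 in DU145-pc3.1 (adjusted p = 0.00492) and by 0.46 in DU145-Esrrb, from 84.1 ± 3.95 to 115.8 ± 6.01 cpm (adjusted p = 0.000206, both edgeR). RBKS, ribokinase, fell by 0.65 and by 0.90 (adjusted p = 0.00389 and 0.000312, edgeR). DERA, deoxyribose-phosphate aldolase, fell by 0.56 in DU145-Esrrb (adjusted p = 0.000194) and differed by -0.20 in DU145-pc3.1 (adjusted p = 0.112, both edgeR). IDNK, a gluconate kinase that feeds the oxidative arm at 6-phosphogluconate, fell by 0.92 in DU145-pc3.1 (adjusted p = 0.000873) and was at -0.09 in DU145-Esrrb (adjusted p = 0.648), with an interaction of 0.83 (adjusted p = 0.0136, all edgeR). Among DY131-treated cells IDNK was higher with Esrrb by 1.16 on the log2 scale (adjusted p = 8.44e-05, edgeR). The IDNK interaction did not pass with DESeq2 (adjusted p = 0.115), without the second untreated DU145-pc3.1 library (adjusted p = 0.0517) or without library a of DY131-treated DU145-Esrrb (adjusted p = 0.0707, both edgeR). In DU145-pc3.1, PRPS1 did not pass without the first untreated library (adjusted p = 0.0699) and RBKS without the second (adjusted p = 0.0533, both edgeR).

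Of 3 genes of thiamine uptake and activation, DY131 raised 1 in DU145-pc3.1 and 1 in DU145-Esrrb, and lowered 0 in either, where 18.9% and 29.2% of all genes rose. It was in both cases SLC19A2, a thiamine transporter of the plasma membrane, which rose by 0.38 in DU145-pc3.1 (adjusted p = 0.00602) and by 0.29 in DU145-Esrrb (adjusted p = 0.0202, both edgeR). In DU145-Esrrb the count was 0 without any one of its 4 libraries, with DESeq2, with library sizes alone and with the exon-junction trend removed. In DU145-pc3.1 it was 0 without the first untreated library and 2 without the first treated one.

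**Figure D5:**
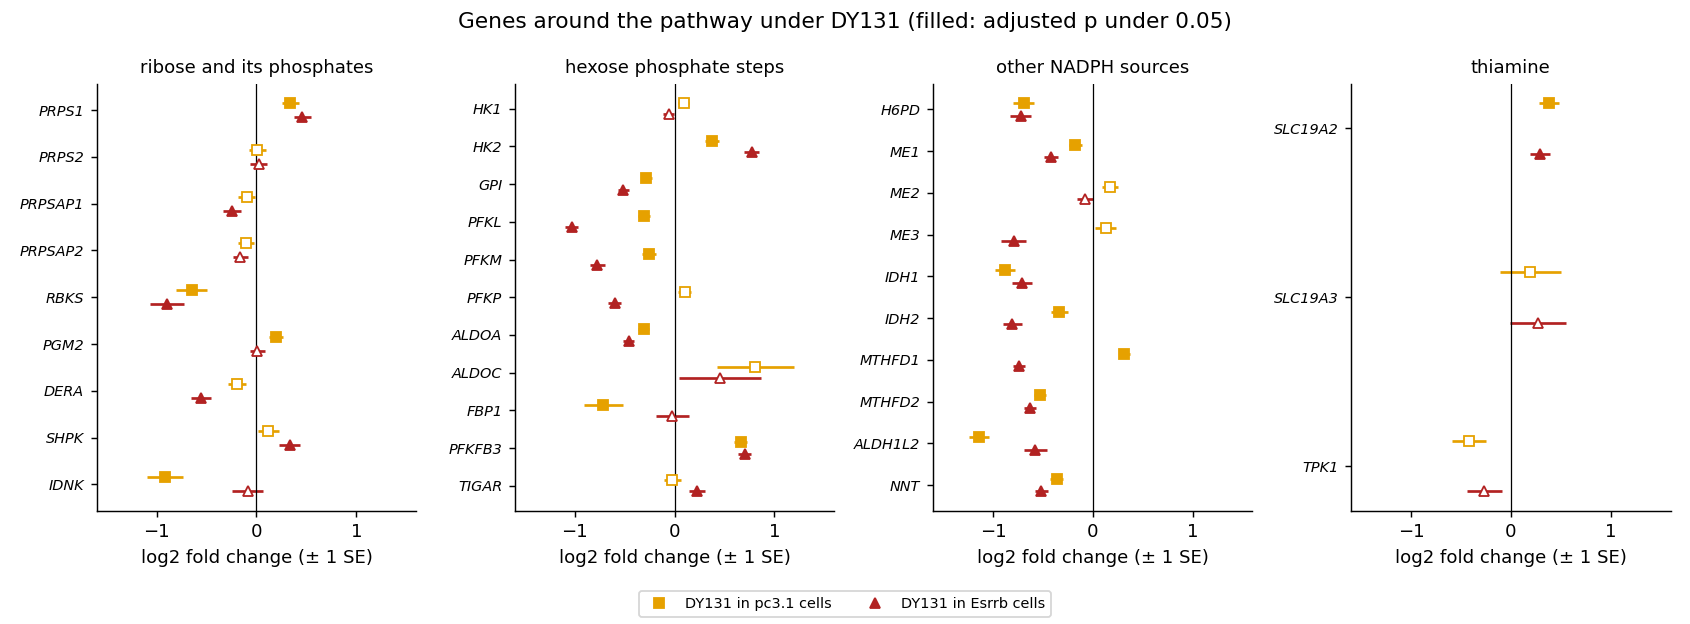
log2 fold change (horizontal axes, bars ± 1 SE) of the genes around the pathway under DY131 in DU145-pc3.1 (squares) and in DU145-Esrrb cells (triangles), with filled symbols for adjusted p under 0.05. In the panel of other NADPH sources 9 of 10 genes fell in DU145-Esrrb, and in that of hexose phosphate steps PFKL had the lowest value, -1.03.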

How the data were processed

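The authors sequenced 50-base single-end reads from stranded mRNA libraries of 8 samples, aligned the trimmed and quality-filtered reads (FASTX-Toolkit) to hg18 by TopHat2, and counted reads per gene with their own program. They deposited raw counts per gene without normalization, which sum to 7.86 M to 11.6 M per library. How that program treats strand and multiply mapping reads is not given in the sources used here. The submitters' processing notes name edgeR and hg18. Groups came from the sample labels.

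Counts were analysed here in R 4.3.3 (edgeR 4.0.16, DESeq2 1.42.0, limma 3.58.1). Windows, motifs and figures were made in Python 3.11.15 (pandas 2.3.3, numpy 2.4.6, matplotlib 3.10.9). A gene needed 1 cpm or more in 2 or more libraries, which 13856 of 23391 reached. Counts were scaled by TMM and tested with the quasi-likelihood F test on 4 group means over all 8 libraries, with Benjamini-Hochberg adjustment over all genes tested and a threshold of 0.05. The SE is the log2 fold change divided by the square root of F. Correlations used log2 cpm with a prior count of 2. Transcript lengths and exon-junction windows came from GENCODE 29, matched by RefSeq identifier or symbol, and the junction trend was removed per library with a lowess fit of span 0.3. The study calls the libraries of a group biological replicates and describes independent replicates of the stably transfected cells, without tying each library to a transfection. Its methods also state that the replicates transfected with each vector were pooled. If the libraries of a vector came from a single pool, the tests measure the spread between cultures and not between transfections.

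The members, the lists around the pathway and the tests were chosen with earlier results of these data known, and some genes of the lists are not reported here. Named neighbours were at most 4 genes a list with the largest absolute fold change among those passing in any comparison of a single factor, and the genes most like TKTL1 were the 5 with the highest r. In a simulation of DU145-Esrrb against DU145-pc3.1 on 13856 genes, the test recovered 95 of 100 genes changed 2-fold and 100 of 100 changed 4-fold, with 11 false calls. The simulation gave all genes and groups the same spread, unlike the data, and changed only genes above a minimum level. Changes under 2-fold, such as those of all members called, were not simulated. Its figures therefore do not give the power or error of the tests reported here. Alternatives were edgeR's exact test, DESeq2, other scalings and filters, removal of the junction trend, fits of 4 libraries, a replicate block and leaving out each library.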

Additional observations from a re-analysis of the deposited data

Results flagged for a closer look

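The DY131 response of 3 of 6 members differed between DU145-Esrrb and DU145-pc3.1 cells by the interaction test (edgeR quasi-likelihood). In that test 33.7% of all genes passed. The difference in log2 fold change was -0.55 for TKT (adjusted p = 0.000253), -0.34 for TALDO1 (adjusted p = 0.00799) and 0.50 for RPE (adjusted p = 0.00905). TKT was lower with DY131 in both pools, and in all 4 treated libraries than in the untreated libraries of the same pool. TALDO1 and RPE had overlapping treated and untreated libraries in DU145-pc3.1 and separate ones in DU145-Esrrb. The interaction of TALDO1 was -0.09 with the exon-junction trend removed (adjusted p = 0.504, edgeR). In that fit 2 of 6 members passed, beside 22.2% of all genes.

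For TKTL1 both libraries moved one way with DY131 in DU145-pc3.1 cells (from 3.05 and 2.20 to 7.10 and 6.65 cpm) and the other way in DU145-Esrrb cells (from 9.51 and 10.1 to 3.52 and 4.30 cpm). The difference in log2 fold change was -2.71. It was not tested, because TKTL1 was chosen for this pattern.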

How the results depend on the processing

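Of 196 recomputed counts of changed members, 187 lay within 1.5 times the reported ones, and of 392 counts for the lists around the pathway, 342 did. The member counts include those at 2-fold or more, which were 0 in each comparison as reported. A count of 2 in place of 3 was taken as within range. The rule is therefore lenient. Over all fits of the 6 members, 548 of 588 fold changes kept their direction and their side of the threshold, and TKT passed in every fit of the comparisons in which it was called. With the junction trend removed, the changed members numbered 3 for DY131 in DU145-Esrrb, 2 for Esrrb among DY131-treated cells and 3 for both factors together, and PGD turned to 0.11 for Esrrb among DY131-treated cells and 0.20 in the interaction. The interaction of PGD passed with library sizes alone (adjusted p = 0.0391), with at least 10 counts in every library (adjusted p = 0.0323) and without the first DY131-treated DU145-pc3.1 library (adjusted p = 0.00494, all edgeR). A member changed at least 2-fold, TKT, was counted (1 in place of 0) for DY131 in DU145-Esrrb with library sizes alone, and for both factors together with library sizes alone, with at least 10 counts in every library and with only the 4 libraries compared, and 0 to 1 when single libraries were left out.

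Values near 0 changed sign. Leaving out single libraries, Esrrb in untreated cells ran from -0.125 to 0.0209 for TKT, -0.0098 to 0.0452 for TALDO1, -0.0283 to 0.197 for RPIA and -0.0602 to 0.111 for RPE. DY131 in DU145-pc3.1 ran from -0.0926 to 0.0696 for TALDO1, -0.228 to 0.0563 for RPIA and -0.172 to 0.135 for RPE. RPIA ran from -0.0286 to 0.0239 for DY131 in DU145-Esrrb, -0.0325 to 0.197 for both factors together and -0.0555 to 0.223 in the interaction. RPIA under DY131 in DU145-Esrrb was -0.061 with library sizes alone, -2.134e-05 without a filter, -0.0358 with at least 10 counts in every library and -0.0116 in the 4 libraries alone.

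For the lists, Esrrb in untreated cells changed 3 genes at the hexose phosphate steps with the exact test, 4 without a filter, 5 with the 4 libraries alone, 0 without and 1 with the replicate block in the 6 numbered libraries, and 0 to 5 when single libraries were left out, where 1 was reported. Other NADPH enzymes then numbered 2 with the 4 libraries alone and 1 to 3 with single libraries left out, and ribose genes 0 to 1. With single libraries left out, DY131 in DU145-pc3.1 changed 2 to 5 ribose and 0 to 2 thiamine genes, DY131 in DU145-Esrrb 3 to 6 and 0 to 1, Esrrb among DY131-treated cells 2 to 5 ribose genes, and both factors together 0 to 1 thiamine genes. In the interaction the ribose, hexose phosphate and NADPH lists had 0 to 3, 3 to 6 and 2 to 6. DESeq2 gave 3 ribose and 0 thiamine genes for DY131 in DU145-Esrrb, 3 and 0 for both factors together, and 0 ribose genes in the interaction, where DESeq2's size factors, library sizes alone, no filter and at least 10 counts each gave 2. Thiamine genes under DY131 in DU145-Esrrb numbered 0 with library sizes alone. The number of all genes called also moved between these settings and with single libraries left out. For Esrrb in untreated cells it was 579 of 13856 in the reported fit and 788 with the exact test. It was 948 of 18701 without a filter and 1209 of 13592 with the 4 libraries alone. For DY131 in DU145-Esrrb, DESeq2 called 6479 against 8128 in the reported fit. For both factors together it called 6560 against 8214, and in the interaction 2897 against 4674. With the junction trend removed, thiamine genes numbered 0 for DY131 in DU145-Esrrb and 0 for both factors together, and hexose phosphate genes 2 for Esrrb among DY131-treated cells and 2 in the interaction.

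The titles give 6 libraries of the table a replicate number. Same-numbered libraries had deviation correlations of 0.0917, 0.0229 and -0.0685, so no strong shared effect was seen. Such values cannot tell whether these libraries shared a transfection or a culture. With the replicate block 0 of 6 members changed with Esrrb and 3 of 6 with DY131 in DU145-pc3.1, and the fit of those 6 libraries without the block gave the same counts. The causes of these changes were not tested. With 2 libraries a group and 25 to 112 reads on TKTL1 a library, the levels of TKTL1 in single libraries of its lowest groups overlapped within counting error.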
